A study of Homo sapiens with 3 samples.

Results

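The STEAP metalloreductases and the core genes of cellular iron handling were followed across 3 expression arrays of cells labelled as a human liver cancer line. The group holds 10 genes, namely STEAP1, STEAP2, STEAP3, TFRC, SLC11A2, FTH1, FTL, SLC40A1, IREB2 and ACO1. They were chosen by gene symbol for their part in iron reduction, uptake, storage, export or regulation, at a time when the STEAP1 values of these arrays were already known, so the differences below are descriptions. The array annotation used here named 20 probe sets for 8 of these genes, out of 41097 probe sets and 19775 genes that carried a single symbol. FTH1 and IREB2 had no named probe set and were not analysed here. Of the 8 genes, 6 gave signals above a floor at the pooled median signal (5.93 in log2), while STEAP2 and SLC40A1 stayed below it on every array.

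The cells are labelled HepG2, a line derived from a human liver tumour, and all 3 cultures are described as stable transfectants. The first culture carried a vector with the Hsp27 open reading frame (titled IRES2-HSP27, here ORF), the second an Hsp27 shRNA vector (titled HSP27-SiRNA, here shRNA) and the third a control vector (titled EGFP-NC, here control). Each vector was read on 1 array, so no difference has a replicate check and no p-value is given, and both comparisons against control rest on the same control array. The labels do not say whether a culture was a single clone or a pool of transfected cells. Hsp27, a small heat shock protein whose gene is HSPB1, has been linked to transferrin receptor-dependent iron uptake in other cell lines.

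Most cells take up iron bound to transferrin. The transferrin receptor TFRC carries it into endosomes, where a STEAP reductase turns ferric into ferrous iron and the transporter SLC11A2 (DMT1) passes it to the cytosol. Iron that is not used is stored in ferritin, a shell built of FTH1 and FTL subunits, or leaves the cell through ferroportin (SLC40A1). The iron regulatory proteins ACO1 and IREB2 sense the supply: when iron is scarce they bind hairpins called iron-responsive elements, which blocks translation of ferritin and ferroportin messages and stabilises the TFRC message. Arrays read messenger levels and not translation, so the part of ferritin control that acts on translation was not measured. The liver is the main iron store of the body and hepatocytes secrete both transferrin (TF) and hepcidin (HAMP), the hormone that closes ferroportin.

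The labels were checked first. HSPB1 read 13.11 on the ORF array, 13.03 on the shRNA array and 13.25 on the control array in log2 signal, so the highest reading was on control. The shRNA array was lower than control by 0.22 on the log2 scale (0.86-fold), the direction of its label. The ORF array was lower as well, by 0.14 (0.91-fold), which goes against its label. With both arrays a little below control, these readings do not establish a knockdown. Which transcript region the HSPB1 probe set reads, and so whether it can detect the vector's copy, was not determined here. The groups are therefore named by their labels alone, on which all directions below depend. Of 12 hepatocyte markers, 4 were above the floor on average and 1, TFR2, reached the 75th percentile of all probe sets (8.63). ALB (albumin) read 4.68, 4.88 and 4.27 and AFP 5.70, 6.25 and 5.75 in the order ORF, shRNA and control. These defining hepatocyte markers were thus near or below the floor on all 3 arrays. The marker readings do not bear out the HepG2 label, and the identity of the cells was not tested. The summed linear signal of all 12 was 1913 on ORF, 1576 on shRNA and 2008 on control, and its part in the iron gene values was not tested. TFR2 read 10.49, 10.16 and 10.53, and no other of the 12 exceeded 6.64, so TFR2 largely sets this sum. TFR2, TF, HAMP, HP and HPX are also in the iron lists used below. Of 5 epithelial markers 3 reached the 75th percentile, of 5 fibroblast markers 2 did, and all 4 leukocyte markers with a named probe set were below the floor.

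The genomic sequence before STEAP1 is shown beside that of STEAP1B, a gene elsewhere on the same chromosome with a nearly identical stretch before its start. Both stretches are the 250 bases before the annotated start, from RefSeq's promoter table for GRCh38.p14, read in the direction of the gene. STEAP1 lies on the plus strand at chr7:90154219-90154468 and STEAP1B on the minus strand at chr7:22500189-22500438. Capitals mark the 6 positions at which they differ, and the other 244 bases (97.6%) are identical.
STEAP1: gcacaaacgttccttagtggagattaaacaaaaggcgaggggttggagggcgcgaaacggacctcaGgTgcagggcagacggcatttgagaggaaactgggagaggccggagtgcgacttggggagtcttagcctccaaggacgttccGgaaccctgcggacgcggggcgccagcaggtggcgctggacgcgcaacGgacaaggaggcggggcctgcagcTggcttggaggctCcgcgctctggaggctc
STEAP1B: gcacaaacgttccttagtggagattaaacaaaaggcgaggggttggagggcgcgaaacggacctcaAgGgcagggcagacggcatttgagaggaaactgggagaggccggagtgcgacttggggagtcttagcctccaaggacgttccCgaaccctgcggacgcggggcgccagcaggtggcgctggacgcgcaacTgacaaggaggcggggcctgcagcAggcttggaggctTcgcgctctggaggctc

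A stretch of FTL is shown because, of the members searched below, only FTL matched the loop letters of the iron-responsive element. The stretch is the last 30 bases of the FTL window, inside the first exon at chr19:48965329-48965358 on the plus strand of GRCh38.p14. Capitals mark a match to the loop letters CAGTGN. The window ends there, so the stretch may not hold the whole hairpin, and no folding was checked.
FTL: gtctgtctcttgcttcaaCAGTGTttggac

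Of the 10 genes, 9 had an entry in the promoter table, some with several starts. SLC11A2 had 4 windows, STEAP2 and IREB2 had 2 each, and the others had 1. The shares given below are of windows and not of genes. FTH1 had no entry and was not searched, so nothing is said of its elements. CAGTGN was searched on the sense strand in the 50 bases after each start. It was found for FTL and for none of the other members with an entry, and 6.36% of all 35116 windows held it. The hypoxia response core ACGTG, searched on both strands of the 300-base windows, was present for TFRC and FTL, against 21.4% of all windows. The antioxidant response core TGACNNNGC, searched in the same way, was in no member's window, against 13.4% of all windows. None of these letters says that a factor binds there, and other members' elements may lie outside the windows.

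STEAP1 stood apart from the rest of the group. Its only probe set, 205542_at, had log2 signals of 9.15 on the ORF array, 9.07 on the shRNA array and 7.33 on the control array, which are linear signals of 567, 536 and 161. Both Hsp27 vector arrays were thus high and close to each other, and the control array was low. STEAP1 was 3.52-fold higher on ORF than on control (log2 ratio 1.81) and 3.32-fold higher on shRNA than on control (1.73). Between ORF and shRNA the log2 ratio was 0.08. A technical noise SD, taken from probe set pairs that share a gene and a similar signal, was 0.25, 0.26 and 0.20 for these comparisons. It leaves out all variation between cultures and is read at the mean signal over the 3 arrays. Near the control signal of 7.33 it was 0.41 for ORF and 0.42 for shRNA against control. In RNA from whole cultures, a higher share of cells that express a gene and more of its RNA per cell cannot be told apart. STEAP1 encodes a membrane protein first described in the prostate, and unlike the other STEAP proteins it lacks the domain that binds NADPH.

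Of the 12664 genes above the floor on at least 1 array, 9 had a higher ratio than STEAP1 for ORF against control and 6 for shRNA against control. For ORF against shRNA 4399 genes did. The probe set of STEAP1B, 217553_at, read 4.87, 2.31 and 5.66 in the order ORF, shRNA and control. It was below the floor on all 3 arrays, with its highest reading on control. Whether the STEAP1 probe set also binds STEAP1B transcripts was not tested, since probe sequences were not used here.

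The other STEAP genes did not share this size of difference. STEAP3, the main ferrireductase of transferrin endosomes in red cell precursors of mice, read 10.84 on ORF, 10.86 on shRNA and 10.70 on control with probe set 218424_s_at. Its second probe set, 1554830_a_at, read 8.26, 8.20 and 7.99 in the same order. Both were a little higher on each vector array than on control, with log2 ratios of 0.14 and 0.27 for ORF and 0.16 and 0.21 for shRNA. Their noise SDs were 0.14 and 0.25 for ORF and 0.17 and 0.29 for shRNA, so each ratio was close to or below 1 noise SD. STEAP4, a family member outside the list and a metalloreductase known from fat and inflamed tissue, read 9.82, 9.77 and 9.45 with its brighter probe set. Its log2 ratios were 0.37 for ORF and 0.32 for shRNA against control (noise SD 0.18 and 0.23), in the direction of STEAP1 but below 1.5-fold. STEAP2 read 2.80, 1.29 and 0.61 with probe set 225871_at, all below the floor, so no ratio is given.

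**Figure D1:**
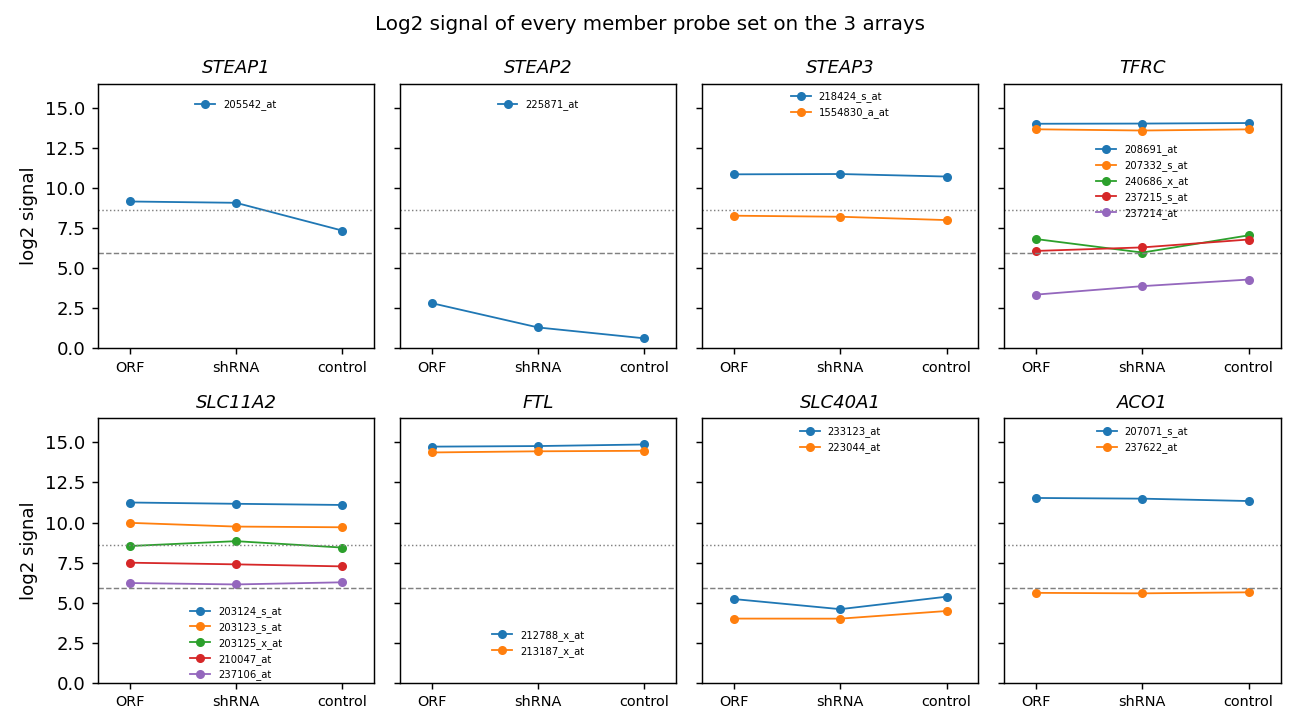
Log2 signal (vertical axis) of each of the 20 member probe sets on the ORF, shRNA and control arrays, with 1 point per array and lines joining the points of a probe set. The dashed line is the floor (5.93) and the dotted line the 75th percentile (8.63). STEAP1 drops on the control array, while the bright probe sets of the other genes run nearly level.

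The uptake genes TFRC and SLC11A2 were nearly level across the arrays. TFRC read 14.00 on ORF, 14.01 on shRNA and 14.04 on control with probe set 208691_at, and 13.65, 13.57 and 13.65 with 207332_s_at. These bright probe sets gave log2 ratios between -0.07 and 0.08 in the 3 comparisons, against noise SDs of 0.07 to 0.10. The ratios of 208691_at against control were -0.05 for ORF and -0.03 for shRNA, and both signs depended on the scaling. Quantile normalization made them 0.03 and 0.06, and loess centring 0.03 and 0.05.

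The dimmer TFRC probe sets gave another picture. Probe set 237215_s_at read 6.06 on ORF, 6.28 on shRNA and 6.78 on control, with log2 ratios of -0.71 for ORF and -0.49 for shRNA against control. Probe set 240686_x_at read 6.80, 5.96 and 7.04, with ratios of -0.23 and -1.07 against control and 0.84 for ORF against shRNA. In these 2 probe sets the control array was the highest, and in 240686_x_at the shRNA array was close to the floor. The noise SD at this signal was 0.54 for ORF and 0.52 for shRNA against control, several times that of the bright TFRC probe sets. The last TFRC probe set, 237214_at, was below the floor on all arrays. The transcript regions that these dim probe sets read were not placed on the genome here.

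SLC11A2, which moves ferrous iron out of the endosome, had 5 probe sets above the floor. The brightest, 203124_s_at, read 11.25 on ORF, 11.17 on shRNA and 11.10 on control. The next, 203123_s_at, read 9.98, 9.75 and 9.71. Both were highest on ORF, with log2 ratios against control of 0.15 and 0.28 for ORF (noise SD 0.11 and 0.15) and 0.07 and 0.04 for shRNA (noise SD 0.18 and 0.20). Over all 5 probe sets the ratios ran from -0.05 to 0.28 for ORF against control, from -0.13 to 0.40 for shRNA against control and from -0.30 to 0.23 for ORF against shRNA. Of the 5, 4 were positive in each comparison. The exception for ORF against shRNA was 203125_x_at, which read 8.54, 8.84 and 8.44, highest on shRNA. SLC11A2 is known to give transcripts with and without an iron-responsive element, and which probe set reads which form was not determined here.

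**Figure D2:**
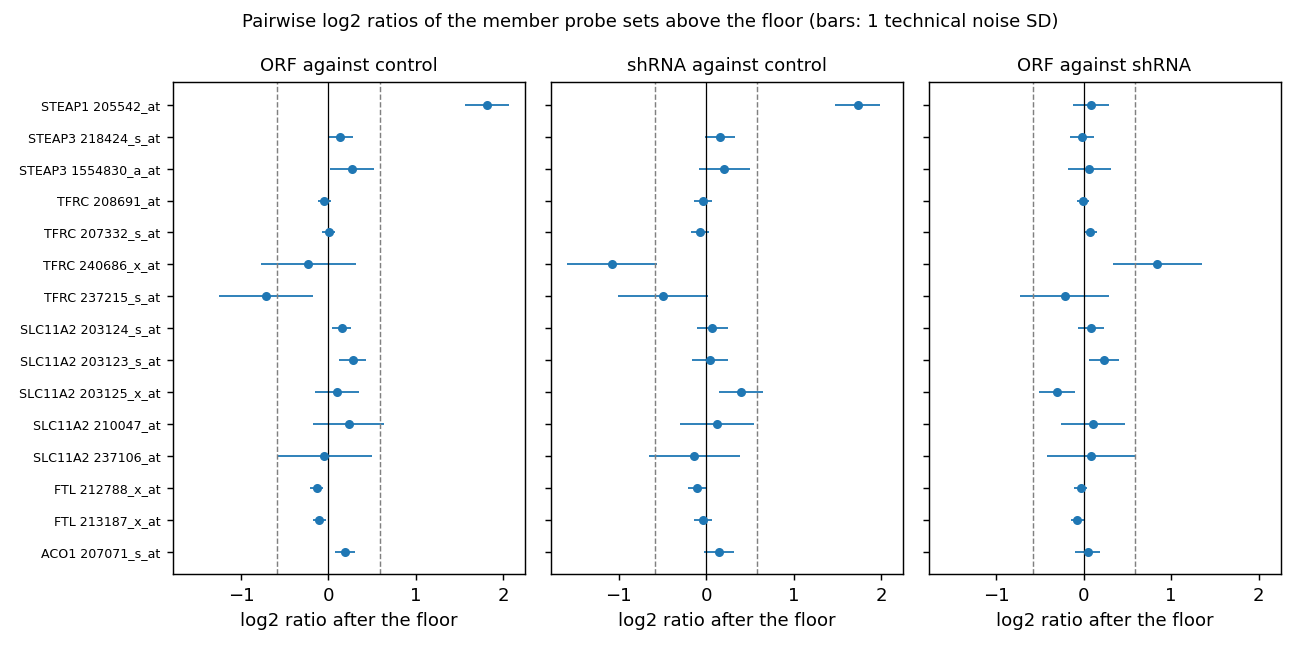
Log2 ratio (horizontal axis) of the 15 member probe sets above the floor in the 3 comparisons, with bars of 1 technical noise SD and dashed lines at 1.5-fold. STEAP1 lies beyond the line against control for both vectors (1.81 and 1.73), and of the others only the dim TFRC probe sets 237215_s_at and 240686_x_at cross a line.

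FTL, the ferritin light chain that aids iron mineral formation inside the shell, was among the brightest signals. Probe set 212788_x_at read 14.74 on ORF, 14.77 on shRNA and 14.87 on control, and 213187_x_at read 14.37, 14.45 and 14.48. Both were lowest on ORF and highest on control, with log2 ratios of -0.13 and -0.10 for ORF and -0.10 and -0.03 for shRNA against control. The direction was not stable to the scaling: with quantile normalization the ratio of 212788_x_at was 0.00 for ORF and 0.08 for shRNA, and with loess centring it was -0.04 and 0.02. Both FTL names end in _x_at, which marks probe sets that can also match other transcripts. A probe set annotated to FTH1P5, a pseudogene related to the ferritin heavy chain, read 14.63, 14.59 and 14.81. It was chosen after its values were seen, and whether it reads heavy chain messages was not tested.

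SLC40A1, the only known exporter of elemental iron from vertebrate cells, was at background. Probe set 233123_at read 5.23 on ORF, 4.60 on shRNA and 5.38 on control, and 223044_at read 4.01, 4.01 and 4.48. All 6 readings were below the floor, so no ratio is given and a difference between the arrays was not detectable at this signal.

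ACO1, a cytosolic aconitase that becomes an RNA-binding regulator when it loses its iron-sulfur cluster, read 11.54 on ORF, 11.49 on shRNA and 11.34 on control with probe set 207071_s_at. Both vector arrays were a little above control, with log2 ratios of 0.19 for ORF (noise SD 0.12) and 0.15 for shRNA (noise SD 0.17), and 0.04 between the vectors. The second probe set, 237622_at, read 5.62, 5.58 and 5.65, below the floor.

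Over the 6 members above the floor, 1 was at least 1.5-fold higher on ORF than on control, namely STEAP1, and 0 were at least 1.5-fold lower. Across all 12664 genes, 3.04% were that much higher and 2.82% that much lower in this comparison. For shRNA against control the member counts were again 1 higher (STEAP1) and 0 lower, against 3.59% and 3.3% of all genes. For ORF against shRNA 0 members reached 1.5-fold in either direction, against 2.64% of all genes higher and 2.68% lower. The median member log2 ratio was 0.15 for ORF against control, 0.11 for shRNA against control and 0.02 for ORF against shRNA, where the median of all genes was 0.00, -0.01 and 0.01. Since the STEAP1 values were known when the group was proposed, nothing is read from its own count.

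STEAP3, SLC11A2 and ACO1 had positive ratios against control on both vector arrays, and kept that sign under every scaling and probe set rule tried that gave them a value. Their ratios for ORF against control nevertheless placed them inside the bulk of genes, since 3112, 2853 and 2325 of the 12664 genes had a higher one. TFRC and FTL lay on the other side, with 7526 and 9522 genes above them. The plot of all genes shows this contrast between STEAP1 and the other members.

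**Figure D3:**
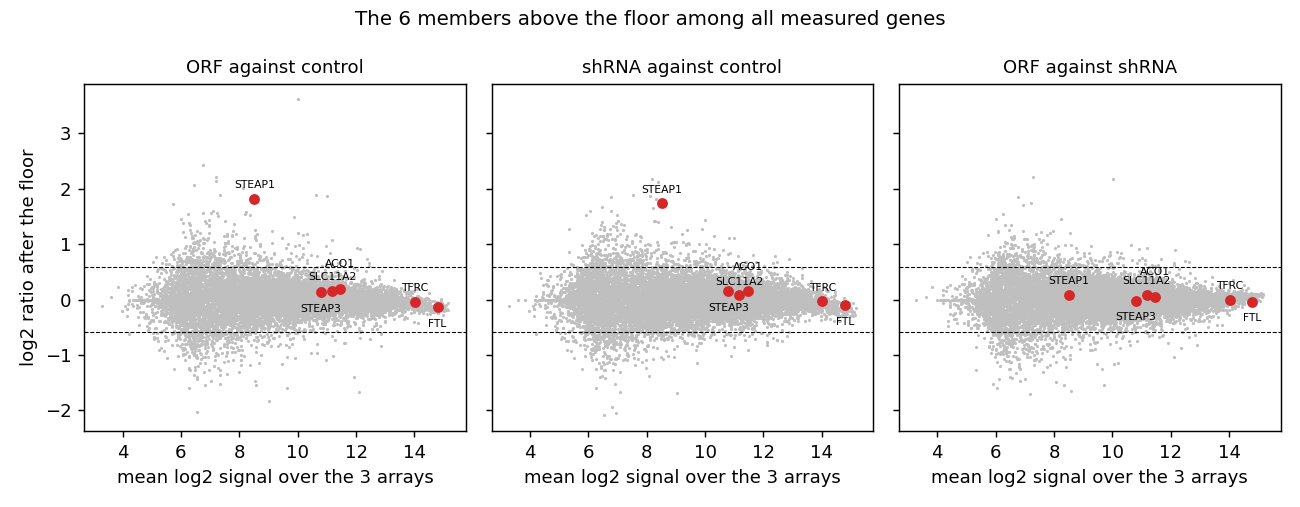
Log2 ratio (vertical axis) against mean log2 signal over the 3 arrays (horizontal axis) for the 12664 genes above the floor, in grey, with the 6 measured members in red and dashed lines at 1.5-fold, in 1 panel per comparison. STEAP1 stands at 1.81 and 1.73 in the panels against control and at 0.08 for ORF against shRNA, and the other 5 members lie between the lines in every panel.

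The wider pathway was described with 6 gene lists, whose counts at 1.5-fold stand beside the shares of all 12664 genes. For ORF against control 3.04% of all genes were higher and 2.82% lower. The shares were 3.59% and 3.3% for shRNA against control, and 2.64% and 2.68% for ORF against shRNA. The lists are small, and no list count was tested against these shares. The list of uptake and reduction genes besides the members had 12 of 16 genes above the floor. Of these, 2 were at least 1.5-fold higher and 1 lower on ORF than on control, 1 higher and 0 lower on shRNA than on control, and 2 higher and 0 lower on ORF than on shRNA. Its median log2 ratios were 0.04, -0.09 and 0.06 in these comparisons, close to those of all genes.

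LCN2, which encodes lipocalin 2, a secreted protein that binds iron-carrying siderophores, had the widest spread of this list. It read 11.94 on ORF, 9.76 on shRNA and 8.33 on control, and so was 12.2-fold higher on ORF and 2.71-fold higher on shRNA than on control. Unlike STEAP1 it also separated the vectors, with a 4.51-fold higher signal on ORF than on shRNA. SCARA5, a receptor that takes up ferritin, read 8.43 on ORF, 7.27 on shRNA and 7.57 on control, with log2 ratios of 0.87 for ORF and -0.30 for shRNA against control and 1.17 between the vectors. Its other probe set gave 0.01 and -0.96 against control and 0.96 between the vectors, so both probe sets were lowest on shRNA, while ORF and control were nearly equal in the second. CYBRD1, a ferric reductase of the gut, read 8.20, 8.26 and 8.79. Its log2 ratio for ORF against control was -0.59 (noise SD 0.25), barely past 1.5-fold. Its other probe set gave -0.31, below 1.5-fold. For shRNA against control the probe sets differed in sign, with -0.54 and 0.14.

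Storage and ferritin turnover genes held 6 measured genes of 8, and 0 reached 1.5-fold in either direction in any comparison. Their median log2 ratios were -0.03 for ORF and -0.15 for shRNA against control, and 0.04 between the vectors. Mitochondrial iron and iron-sulfur cluster genes, which turn iron into protein cofactors, held 18 measured genes of 21. Again 0 reached 1.5-fold, and all 3 medians lay between 0.00 and 0.02. The sign of the smallest of them changed with the scaling.

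Export and systemic control genes held 10 measured genes of 15. In each comparison against control 0 were higher and 1 lower, where 2.82% (ORF) and 3.3% (shRNA) of all genes were lower. Between the vectors 0 reached 1.5-fold in either direction. The gene that was lower was TMPRSS6 both times, a liver protease that restrains hepcidin. It read 5.85 on ORF, 5.97 on shRNA and 6.64 on control, so both vector arrays were at the floor, and its log2 ratios of -0.71 and -0.67 stand beside noise SDs of 0.54 and 0.52. HAMP itself read 5.81, 6.38 and 6.51, near the floor on all 3 arrays.

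The regulator list, with the other transcripts known to carry an iron-responsive element, held 9 measured genes of 12. CIAO3, which helps build cytosolic iron-sulfur proteins, was lower on ORF than on control and lower on ORF than on shRNA. It read 6.78 on ORF, 7.74 on shRNA and 7.75 on control, and its log2 ratios were -0.97 and -0.96 for these comparisons, with noise SDs of 0.41 and 0.36. No other gene of the list reached 1.5-fold in any comparison. EPAS1, the hypoxia factor HIF-2 alpha, came nearest and was picked out after its values were seen. It read 13.10, 13.01 and 12.59, with log2 ratios of 0.51 for ORF and 0.42 for shRNA against control.

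Heme genes held 20 measured genes of 24. For ORF against control 0 were at least 1.5-fold higher and 2 lower, against 3.04% and 2.82% of all genes. For shRNA against control 1 was higher and 1 lower, against 3.59% and 3.3%. For ORF against shRNA 0 were higher and 1 lower, against 2.64% and 2.68%. CPOX, an enzyme of heme synthesis, was the higher one on shRNA. It read 9.82 on ORF, 10.20 on shRNA and 9.46 on control, with log2 ratios of 0.36 for ORF and 0.74 for shRNA against control (noise SD 0.15 and 0.20). The heme transporter FLVCR2 read 6.25, 6.89 and 7.01, with log2 ratios of -0.76 for ORF against control and -0.64 for ORF against shRNA. Another of its probe sets gave 0.33 for ORF against control, in the opposite direction, and the last was under the floor on ORF and control. LRP1, a receptor that also clears heme bound to hemopexin, read 7.20, 7.55 and 7.93, and its log2 ratio for ORF against control was -0.74. Its other probe set gave 0.59, in the opposite direction, with a control reading of 5.59 under the floor. For shRNA against control these probe sets gave -0.38 and 0.59, again in opposite directions. HPX, hemopexin itself, read 6.49 on ORF, 5.70 on shRNA and 6.64 on control, with a log2 ratio of -0.71 for shRNA against control beside a noise SD of 0.52.

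**Figure D4:**
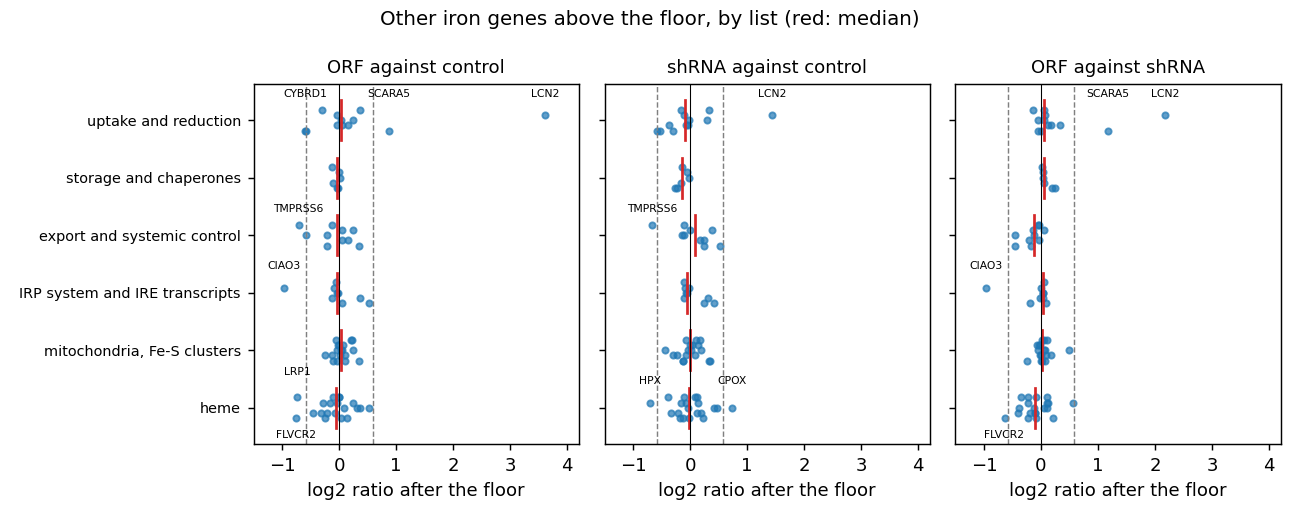
Log2 ratios (horizontal axis) of the measured genes of 6 pathway lists (rows) in the 3 comparisons, with 1 point per gene, a red bar at each median and dashed lines at 1.5-fold. The medians of the lists lie between -0.15 and 0.09, and LCN2 (3.61) is the farthest point for ORF against control. Named points reached 1.5-fold in that comparison.

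The genes whose pattern was most like that of STEAP1 were ranked by the distance between log2 profiles over the 3 arrays, each centred on its own mean, among 8175 genes. Only 3 points carry little information, so nearness here means only a similar size of the gap between control and both vector arrays. The nearest was MMP2, a gelatinase, at a distance of 0.14. It read 8.83 on ORF, 8.69 on shRNA and 6.82 on control. IL6, an inflammatory cytokine, came next at 0.24 and read 8.83, 8.66 and 7.25. These genes had the STEAP1 order, with ORF highest, shRNA a little below and control lowest. MFAP5, a microfibril protein, at 0.32, and EPB41L3, a membrane skeleton protein, at 0.51, were instead highest on shRNA, with 8.88, 9.18 and 7.06 for MFAP5 and 8.49, 9.12 and 6.94 for EPB41L3. PI3, an elastase inhibitor, followed at 0.53 and read 11.87, 11.12 and 10.01. None of the 5 belongs to the iron lists used here.

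**Figure D5:**
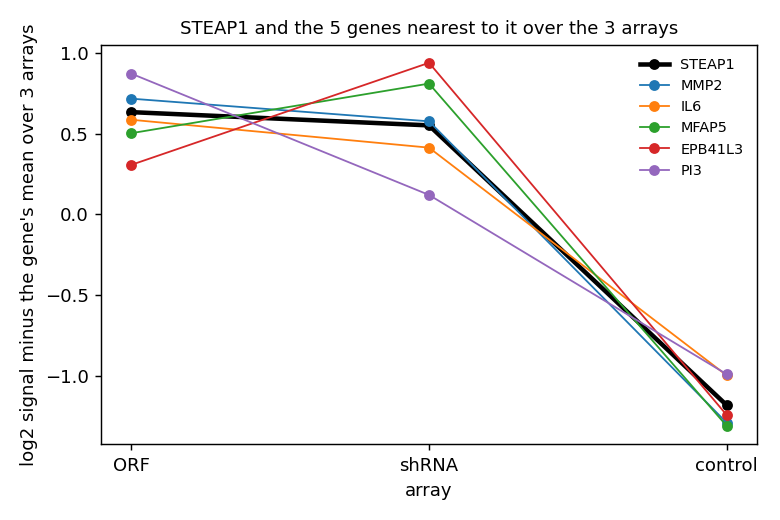
Log2 signal minus each gene's own mean over the arrays (vertical axis) on the ORF, shRNA and control arrays for STEAP1 and the 5 genes nearest to it in pattern. STEAP1 and MMP2 run closest together, and all 6 genes are lowest on control.

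STEAP1 shares its stretch of chromosome 7 with other STEAP genes, and the protein-coding neighbours were read for comparison after the STEAP1 values were seen. STEAP4, 3 places before STEAP1, was higher on both vector arrays by the small ratios given above. ZNF804B and TEX47, which lie between them, and STEAP2, directly after STEAP1, were below the floor on all 3 arrays. CFAP69, 2 places after, read 6.56 on ORF, 6.35 on shRNA and 6.54 on control, with log2 ratios of 0.01 and -0.19 against control. A difference of the size seen for STEAP1 was thus not seen in the 2 neighbours that gave a ratio.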

How the data were processed

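RNA from 3 transfected cultures was read on Affymetrix arrays, 1 array per group, with groups taken from the transfection labels. The deposited values are log2 signals made by the authors with MAS5, per the submitters' processing notes. The 2% trimmed mean of the linear signals was 500.1 on each array, so no further scaling was applied. Of 54675 probe sets, 41097 carried 1 gene symbol, 1801 several and 11777 none, and 41043 of the first kind matched RefSeq's GRCh38.p14 gene table.

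A gene was represented by its probe set with the highest mean log2 signal. Signals under the floor, the pooled median (5.93 in log2, 60.8 linear), were raised to it before ratios were taken, and genes above it on at least 1 array (12664) were counted at 1.5-fold. The noise SD came from 2753 pairs of probe sets of 1 gene that differed by under 1 in mean log2 signal, in 20 bins of signal. It covers differences between probe sets on the same arrays, which can include differences between transcript forms. Array-wide shifts and variation between cultures are left out of it. No test was possible with 1 array per group. With arrays, their number limits the precision.

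The members and lists were chosen with earlier results of these data known. All members are named with their values, as are up to 4 genes per list that reached 1.5-fold, those with the widest ratios, and the 5 genes nearest to STEAP1 in pattern, and other genes are marked as chosen after their values were seen or were read as label, marker or family checks. Alternatives varied the scaling, the floor, the probe set rule and the fold threshold. The scripts were tested on simulated data, with known changes placed on the ORF array in genes whose mean signal exceeded the 75th percentile. STEAP1, with a mean of 8.52, lies just under that cut, so changes at its signal and below were not covered. Python 3.11.15 was used with numpy 2.4.6, pandas 2.3.3, statsmodels 0.14.6 and matplotlib 3.10.9.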

Additional observations from a re-analysis of the deposited data

How the results depend on the processing

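The higher STEAP1 signal on both vector arrays than on control kept its direction under each of the 7 alternatives that gave it a value. Most of these could not reverse it. STEAP1 has a single probe set above the floor on every array, so dropping the floor or changing the probe set rule left its ratios unchanged. A raised floor can shrink a ratio but not reverse it. Under the alternative scalings the log2 ratios were 1.78 to 1.80 for ORF and 1.72 to 1.73 for shRNA against control. With the floor raised to the 75th percentile, 8.63, the STEAP1 log2 ratio was 0.52 for ORF against control and 0.43 for shRNA against control, and 0 members were at least 1.5-fold higher in either comparison. The STEAP1 control signal of 7.33 lies under that floor, so the floor itself sets these ratios. The number of genes at 1.5-fold depended on the settings. For ORF against control it was 385 higher and 357 lower as reported, 627 and 674 without a floor, 71 and 54 with the raised floor, 220 and 194 when a gene's probe sets were summarised by their median, 83 and 63 at 2-fold, and 1224 and 1175 at a fold threshold below 1.5. For shRNA against control it was 455 and 418 as reported, and 749 and 671, 109 and 85, 241 and 229, 85 and 61, and 1445 and 1448 under the same alternatives. For ORF against shRNA it was 334 and 340, and 582 and 668, 63 and 56, 182 and 176, 37 and 58, and 1244 and 1208. Quantile normalization, loess centring, equal medians and the removal of probe sets ending in _x_at or _s_at moved these counts by under 1.5 times. The last of these left 4 measured members, without FTL and ACO1, and moved the median of the storage list for ORF against control to 0.46. That median rests on fewer genes, since the only probe sets of PCBP4 and NCOA4 were removed. PCBP2, HERC2 and BOLA2 lost the probe sets that had represented them, so it is not a shift of the same readings. No paired analysis was possible because each group had 1 array, and for the same reason no replicate could be left out. Signals under the floor limit what can be said of STEAP2 and SLC40A1.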
